A study of Mus musculus with 2 samples.

Results

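Complement is a cascade of plasma proteins, most of them made by hepatocytes, that marks microbes and damaged cells and can open pores in their membranes. The classical pathway starts when C1q binds antibody or dying cells, the lectin pathway starts when mannose-binding lectins or ficolins bind sugars, and the alternative pathway amplifies both through C3 and factor B. All of them meet at C3 and end in the terminal components, while soluble and membrane-bound regulators keep the cascade off the host's own cells. Described here are 33 complement components, regulators and receptors, chosen by symbol in the deposited table of 36771 rows, with the row of highest mean standing for a repeated symbol. All 33 were found there, each on a row of its own.

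The table holds 1 liver library labelled WT and 1 labelled SRSF2-KO, both from BALB/c mice at 5 months of age. In the second, Srsf2, which codes for an RNA-binding splicing factor, was deleted specifically in liver, per the design text. The sources used here do not give the construct and promoter behind the deletion, the sex of the mice or how many mice each library holds. With 1 library per genotype the differences have no replicate check, so none was tested. Values are FPKM, in which fragments are divided by the length of the transcript and the size of the library, so levels of different genes can be set side by side.

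Srsf2 stood at 45.3 FPKM in the SRSF2-KO-labelled library and 38.2 FPKM in the WT-labelled library. The targeted gene was thus not lower in the SRSF2-KO-labelled library, and every direction below is one between 2 labels. Estimated depth was 24400000 fragments for SRSF2-KO and 19400000 for WT. Hepatocyte markers were abundant in both libraries (Apoa1 at 8305 FPKM under SRSF2-KO and 10936 FPKM under WT), although Alb, the albumin gene, was listed at 0 in both. No complement member was listed at 0.

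Log2 ratios were computed as log2((SRSF2-KO + 1)/(WT + 1)) from FPKM, and a value above 0 means a higher level in the SRSF2-KO-labelled library. Fold differences are plain ratios of FPKM. Their 95% exact (Clopper-Pearson) intervals come from estimated reads and cover counting error only. Because the 2 columns do not sum to the same total, each log2 ratio was also computed after 3 rescalings, which moved the median of all measured rows by 0.13 (median ratio), 0.24 (equal sums outside the 50 most abundant rows) and 0.31 (TPM). Where the sign of a member depended on this, it is said with the counts below or beside the value. All 3 rescalings raise SRSF2-KO values against WT values, so they can turn only a sign below 0.

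As deposited, complement summed to nearly the same FPKM in both libraries, and a few members stood apart. The 33 members summed to 8251 FPKM in the SRSF2-KO-labelled library and 7998 FPKM in the WT-labelled library, or 1.58% and 1.20% of all FPKM in each. Of the 33, 30 had at least 1 FPKM in at least 1 library and are called measured. The other 3, C7, Cd46 and C5ar1, lay below that and are given as values. Among the 30, 9 lay above 0 and 21 below 0, beside 5266 and 6162 of all 11428 measured rows. C3ar1 reached 1 FPKM only in the SRSF2-KO-labelled library and Cfd only in the WT-labelled library. The median log2 ratio of the members was -0.20, against -0.04 over all measured rows. That median turned to 0.09 and 0.15 after the equal-sum and TPM rescalings, where the median of all rows was 0.21 and 0.27 and 17 members lay above 0.

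On this log2 scale only C6 was at least 2-fold higher in the SRSF2-KO-labelled library, which is 1 of 30 beside 5.49% of all measured rows. Fcna, C8g and Mbl2 were at least 2-fold lower, 3 of 30 beside 3.22% of all measured rows. After the TPM rescaling only Fcna was still at least 2-fold lower, beside 1.99% of all measured rows, and C6, C3ar1 and Clu were at least 2-fold higher, 3 of 30 beside 10.7%. Over the 4 scalings, deposited values included, 9 measured members lay above 0 each time and 13 below 0 each time. The same count was not made over all rows, so it has no share to stand beside. The 9 were above 0 as deposited, and the rescalings, which raise SRSF2-KO against WT, could not turn them. The remaining 8 (C1ra, C1s, C2, C4b, Cfb, C8a, C8b and C9) changed sign and lay between -0.26 and -0.01 as deposited.

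**Figure D1:**
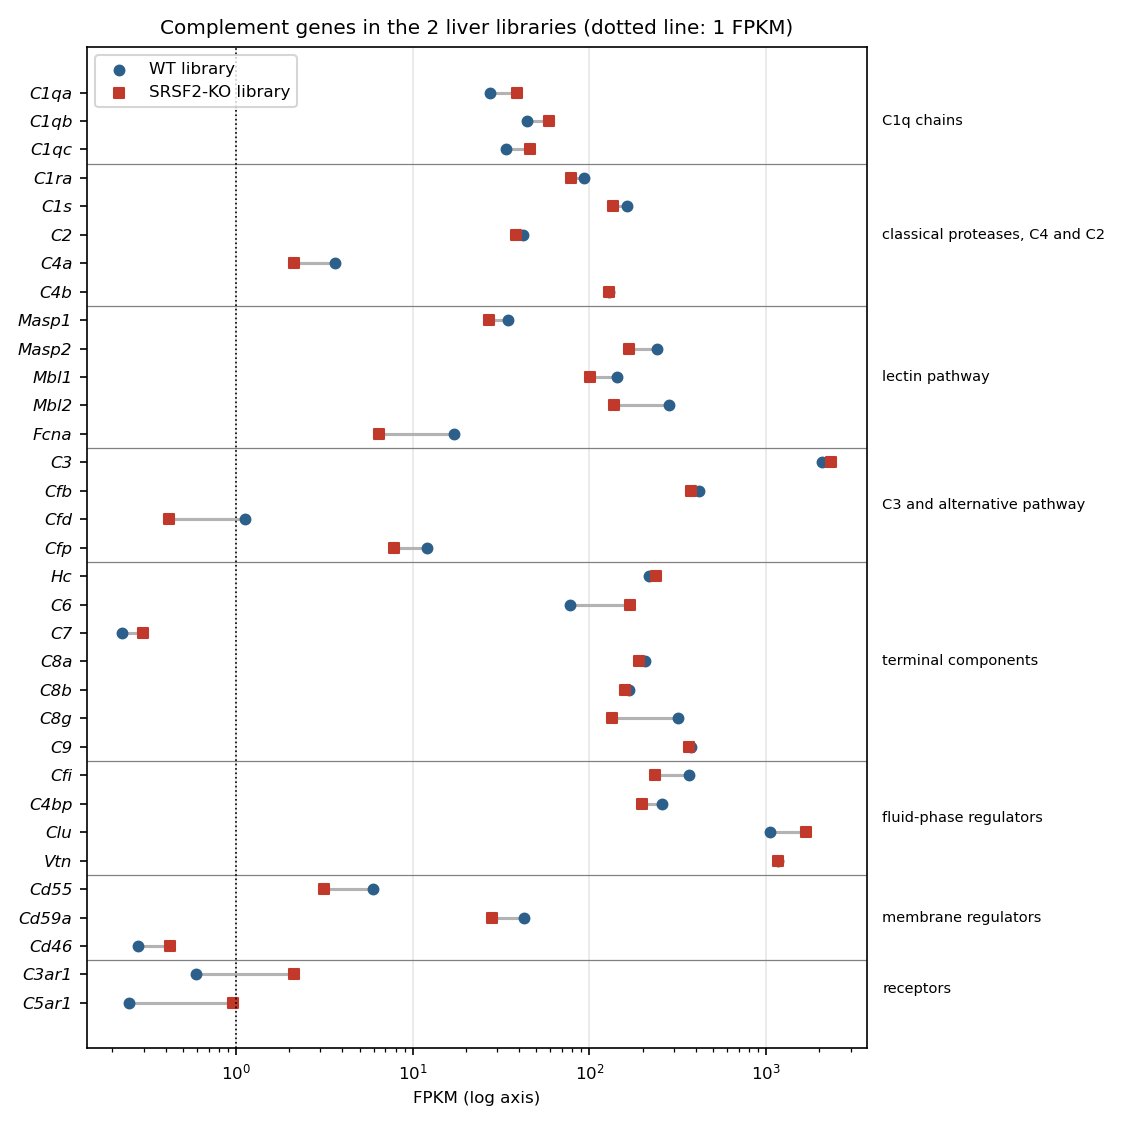
Level of each of the 33 complement genes in FPKM on a log axis, with the WT library as blue circles and the SRSF2-KO library as red squares, grouped by role. Levels run from 0.228 FPKM for C7 to 2332 FPKM for C3, and the widest gaps among the abundant genes are those of C6, C8g and Mbl2.

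C3, the protein on which all pathways meet, was the most abundant member, at 2332 FPKM in the SRSF2-KO-labelled library and 2069.6 FPKM in the WT-labelled library. It ranked 25th and 41st among all rows, and its 1.13-fold difference had a counting interval of 1.12 to 1.13. Clusterin (Clu) and vitronectin (Vtn), plasma proteins that bind the assembling terminal complex and keep it out of membranes, came next. Clu stood at 1676 against 1051 FPKM, the SRSF2-KO-labelled library being named first here and below, a 1.60-fold difference with an interval of 1.57 to 1.62. Vtn was at 1171 against 1163 FPKM, so the order of the pair was reversed between the libraries. Together with C3 they made up 62.8% of the summed FPKM of the members in the SRSF2-KO-labelled library and 53.6% in the WT-labelled library.

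Below these, 13 further members exceeded 100 FPKM in both libraries. In the WT-labelled library the order went on with Cfb (416 FPKM), C9 (376), Cfi (364), C8g (316) and Mbl2 (283). In the SRSF2-KO-labelled library it went on with Cfb (374 FPKM), C9 (366), Hc (238), Cfi (236) and C4bp (197). C8g and Mbl2 thus dropped out of the upper 8, while Hc and C4bp entered. Across the 30 measured members the levels in the libraries followed each other closely, with a Pearson r of 0.98 on log2(FPKM + 1), given as a description of genes that share the same 2 libraries.

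**Figure D2:**
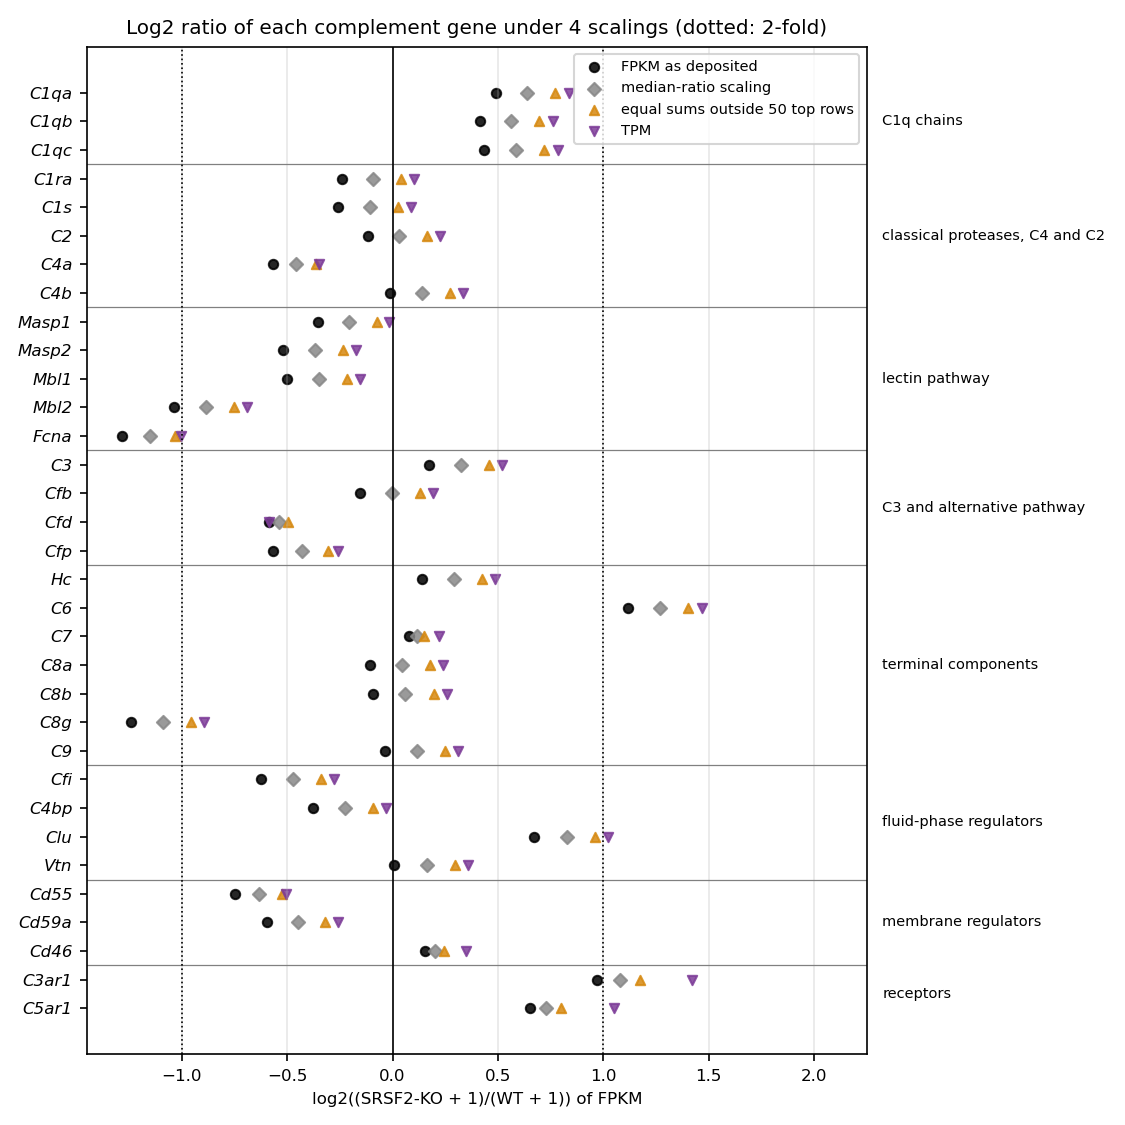
Log2 ratio of SRSF2-KO to WT for each complement gene, as deposited (black circles) and after 3 rescalings (grey, orange and purple), with dotted lines at 2-fold. C6 lies beyond the upper line and Fcna at or beyond the lower line under all 4, while 8 measured genes, from C1ra to C9, cross 0.

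The 3 chains of C1q, the collagen-like molecule that opens the classical pathway and is made mainly by macrophages, were higher in the SRSF2-KO-labelled library by nearly the same factor. C1qa stood at 38.8 against 27.3 FPKM, 1.42-fold with an interval of 1.27 to 1.60. C1qb was at 59.4 against 44.3 FPKM, 1.34-fold with an interval of 1.22 to 1.46. C1qc was at 45.8 against 33.6 FPKM, 1.36-fold with an interval of 1.24 to 1.50. The chain makeup barely moved: C1qa, C1qb and C1qc took 27.0%, 41.2% and 31.8% of their sum in the SRSF2-KO-labelled library, and 26.0%, 42.1% and 31.9% in the WT-labelled library. All 3 log2 ratios were above 0 as deposited, and the rescalings, which can only raise them, are no check of that sign. In the RefSeq gene order (GRCm38.p6) the C1q genes lie next to each other, with 0 protein-coding genes between neighbours.

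The classical proteases and their substrates differed little. C1ra and C1s, neighbouring genes for the proteases that C1q activates, stood at 78.6 against 93.1 FPKM and at 136 against 163 FPKM. Their log2 ratios of -0.24 and -0.26 turned to 0.10 and 0.09 after the TPM rescaling. C2, the protease part of the classical C3 convertase, was at 38.5 against 41.9 FPKM, and its neighbour Cfb, which plays that part in the alternative pathway, at 374 against 416 FPKM, and both ratios turned above 0 as TPM. C4b, which codes for the main mouse C4, was at 128 against 129 FPKM, with a fold of 0.990 and an interval of 0.968 to 1.01, and its log2 ratio of -0.01 was 0.33 as TPM. C4a, a near-identical copy known as sex-limited protein, was at 2.13 against 3.63 FPKM. Counting can split reads between C4a and C4b, and between C1ra or C1s and their own copies, and single values of these genes are uncertain.

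Genes of the lectin pathway were lower in the SRSF2-KO-labelled library: all 5 members lay below 0 under each of the 4 scalings, with a median log2 ratio of -0.52 as deposited. Mbl2, which codes for mannose-binding lectin C, stood at 137 against 283 FPKM, 2.06-fold lower with an interval of 1.97 to 2.16. Its log2 ratio of -1.04 shrank to -0.69 after the TPM rescaling. Mbl1, for mannose-binding lectin A, was at 100.3 against 142 FPKM, 1.42-fold lower with an interval of 1.35 to 1.49. The ratio of Mbl2 to Mbl1, which no scaling can change, was 1.37 in the SRSF2-KO-labelled library and 1.99 in the WT-labelled library.

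Fcna codes for ficolin A, a sugar-binding relative of the lectins that macrophages of liver and spleen make. It was at 6.45 against 17.2 FPKM, 2.66-fold lower with an interval of 2.23 to 3.18. Masp2, for the protease that cleaves C4 and C2 once a lectin has bound, stood at 168 against 241 FPKM, 1.44-fold lower. Masp1, whose product activates MASP-2, was the closest of the 5, at 26.9 against 34.7 FPKM, and its log2 ratio of -0.35 came to -0.02 after the TPM rescaling. Hepatocyte markers were lower alongside: the 6 measured ones all lay below 0, except that Apob turned above 0 after each rescaling, and the list summed to 12982 against 19626 FPKM. Their part in the lectin result was not tested, and in bulk liver fewer cells of a type and less RNA per cell cannot be told apart.

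Other collectins that work with the same proteases were lower too. Colec10 stood at 0.775 against 9.57 FPKM, 12.3-fold lower with an interval of 9.88 to 15.7, and Colec11 at 8.28 against 13.5 FPKM. With Mbl1, Mbl2 and Fcna these make up 5 recognition molecules of the lectin pathway, grouped after their values were seen. Their sum was 253 FPKM in the SRSF2-KO-labelled library and 465 FPKM in the WT-labelled library. All 5 lay below 0 under each of the 4 scalings. Colec10 reached 1 FPKM only in the WT-labelled library, so as deposited it could only lie below 0. Markers of stellate cells and fibroblasts lay above 0 in 8 of 9 as deposited and summed to 205 against 102 FPKM. Lrat, at 1.48 against 2.76 FPKM, was the exception under each scaling. Col1a1 and Pdgfrb reached 1 FPKM only in the SRSF2-KO-labelled library. The rescalings could not turn the 8. Among them, Reln (6.79 against 6.57 FPKM) and Des (1.61 against 1.27 FPKM) had fold intervals of 0.965 to 1.11 and 0.935 to 1.74. The part of these cells in the collectin values was not tested.

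The alternative pathway genes other than C3 and Cfb were low in liver. Cfp codes for properdin, which steadies the alternative convertase and comes mainly from myeloid cells. It stood at 7.84 against 12.1 FPKM, 1.54-fold lower with an interval of 1.31 to 1.81. Cfd, for factor D, a protease known from fat tissue as adipsin, was at 0.417 against 1.13 FPKM, worth about 8 and 16 reads. Adipoq, a defining gene of adipocytes, stood at 0.0394 against 0.897 FPKM, about 1 and 19 reads, and Lep at 0 against 0.0649 FPKM. The adipocyte list of 4 genes summed to 5.34 against 3.12 FPKM, led by Cidec, a lipid droplet gene, at 5.25 against 1.88 FPKM. The part of adipocytes in the Cfd values was not tested.

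The terminal components split. Hc, which codes for C5, stood at 238 against 216 FPKM, and C9, whose copies form the wall of the pore, at 366 against 376 FPKM. C8a and C8b, for the membrane-inserting alpha and beta chains of C8, were at 192 against 207 FPKM and at 158 against 168 FPKM. These 4 had log2 ratios between -0.11 and 0.14 as deposited, and all 4 lay above 0 after each rescaling. C7, which lets the growing complex bind to membranes, was barely present, at 0.296 against 0.228 FPKM or about 18 and 11 reads.

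C6 and C8g departed from them in opposite directions. C6, the component that binds activated C5 first, was at 169 against 77.6 FPKM, a 2.18-fold higher level with an interval of 2.11 to 2.26. C8g, for the gamma chain, a small lipocalin bound to the alpha chain, was at 133 against 316 FPKM, 2.37-fold lower with an interval of 2.27 to 2.48. The log2 ratio of C6 was 1.12 as deposited and 1.27 to 1.47 after the rescalings. That of C8g was -1.24 as deposited and -1.09 to -0.90 after them.

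Ratios within a library show the same without any scaling. C8g was the most abundant C8 chain in the WT-labelled library, at 45.8% of the 3, and the least abundant in the SRSF2-KO-labelled library, at 27.6%. The ratio of C8g to C8a was 1.53 in the WT-labelled library and 0.696 in the SRSF2-KO-labelled library, and their quotient of 0.455 had a 95% log-odds (Woolf) interval of 0.433 to 0.477 for counting error. In the same order, the ratio of C8b to C8a was 0.815 and 0.825, with a quotient of 1.01 and an interval of 0.974 to 1.05. The ratio of C6 to C9 was 0.207 in the WT-labelled library and 0.463 in the SRSF2-KO-labelled library, and that of C6 to Hc was 0.359 and 0.712.

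**Figure D3:**
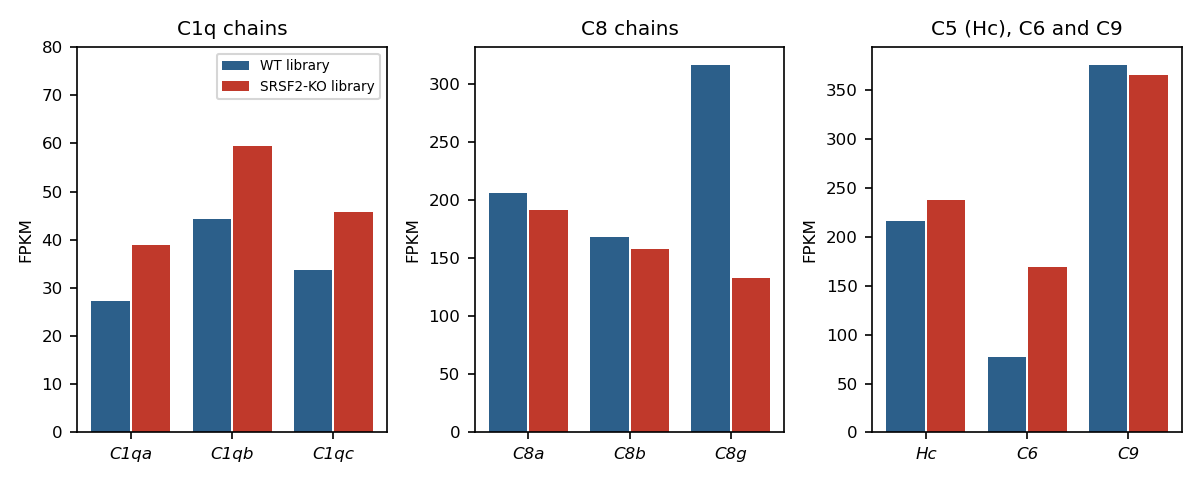
Levels in FPKM of the C1q chains, the C8 chains and the terminal components Hc, C6 and C9, with the WT library in blue and the SRSF2-KO library in red, 1 library each. The C1q chains keep their proportions, C8g changes from the highest to the lowest C8 chain, and C6 stands at 169 against 77.6 FPKM while Hc and C9 lie close.

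The promoters of the C8 chains and C6 are shown because their levels parted although their products join the same complex. Each window runs from 250 bases before to 50 after the annotated start in RefSeq (GRCm38.p6), and capitals mark the motifs found. C8a and C8b lie next to each other on chromosome 4 with 0 protein-coding genes between them, C8g is on chromosome 2, and C6 is on chromosome 15. The windows are chr4:104876349-104876648 on the minus strand for C8a, chr4:104766067-104766366 on the plus strand for C8b, chr2:25501670-25501969 on the minus strand for C8g (the upstream one of 2 starts) and chr15:4726960-4727259 on the plus strand for C6.
C8a: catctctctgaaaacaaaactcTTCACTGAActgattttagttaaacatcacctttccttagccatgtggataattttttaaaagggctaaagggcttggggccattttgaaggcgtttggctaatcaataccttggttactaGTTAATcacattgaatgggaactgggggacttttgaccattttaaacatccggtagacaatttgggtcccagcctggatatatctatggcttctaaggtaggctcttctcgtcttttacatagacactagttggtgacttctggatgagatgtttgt
C8b: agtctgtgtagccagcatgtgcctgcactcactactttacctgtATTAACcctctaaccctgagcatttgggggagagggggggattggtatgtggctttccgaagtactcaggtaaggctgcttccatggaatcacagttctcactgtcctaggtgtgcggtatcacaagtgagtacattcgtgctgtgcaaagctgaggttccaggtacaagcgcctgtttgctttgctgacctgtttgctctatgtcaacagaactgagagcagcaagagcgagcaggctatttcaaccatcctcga
C8g: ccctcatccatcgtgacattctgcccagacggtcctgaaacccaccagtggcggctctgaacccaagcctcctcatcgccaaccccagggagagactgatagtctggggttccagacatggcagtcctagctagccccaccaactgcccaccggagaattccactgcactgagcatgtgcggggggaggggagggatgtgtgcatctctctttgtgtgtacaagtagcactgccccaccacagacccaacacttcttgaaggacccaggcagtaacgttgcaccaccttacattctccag
C6: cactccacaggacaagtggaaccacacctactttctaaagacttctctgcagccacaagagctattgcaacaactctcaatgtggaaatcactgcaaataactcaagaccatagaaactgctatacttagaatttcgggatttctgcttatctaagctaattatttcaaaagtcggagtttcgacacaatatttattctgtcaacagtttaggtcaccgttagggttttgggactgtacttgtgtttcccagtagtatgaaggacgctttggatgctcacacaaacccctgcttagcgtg

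Motifs were searched on both strands as exact letters, with N for any base. The HNF1 core GTTAAT was in the windows of C8a and C8b and in neither that of C8g nor that of C6. The STAT motif TTCNNNGAA was in the window of C8a. The TATA box TATAAA, the forkhead motif TGTTTAC and the C/EBP motif TTGCNNAA were in none of the 4. Over the 25 members with a promoter in the table, GTTAAT was found in 9 (C1ra, C4bp, C7, C8a, C8b, Cd55, Cfp, Hc and Vtn), beside 7.10% of all 32851 windows. TTCNNNGAA was in 5 of 25 beside 8.30%, TTGCNNAA in 4 beside 10.8%, TATAAA in 5 beside 13.6% and TGTTTAC in 0 beside 3.65%. A gene with several starts counted once where any window held the motif, whereas the shares of all are per window. The counts of members and those shares are thus in unlike units, and their difference was not tested. No match says only that these letters are absent from the window.

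Regulators in plasma went both ways. Besides Clu and Vtn, Cfi, the protease that destroys C3b and C4b, stood at 236 against 364 FPKM, 1.54-fold lower in the SRSF2-KO-labelled library with an interval of 1.50 to 1.58. The ratio of Cfi to C3, free of scaling, was 0.101 in the SRSF2-KO-labelled library and 0.176 in the WT-labelled library. C4bp, a cofactor of that protease, was at 197 against 257 FPKM, and its log2 ratio of -0.38 came to -0.03 after the TPM rescaling.

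The 2 membrane regulators measured among the members were lower. Of such genes outside the members, Cr1l was higher at 22.7 against 20.4 FPKM, and Cd59b and Susd4 were lower. Cd59a, which stops C9 from polymerising, stood at 28.0 against 42.9 FPKM, 1.53-fold lower with an interval of 1.41 to 1.66. Cd55, which breaks up the convertases, was at 3.13 against 5.93 FPKM, 1.90-fold lower with an interval of 1.56 to 2.30. Both have a related copy in the mouse genome that may share some of their reads, and both stayed below 0 under the 4 scalings. Cd59b, the copy of Cd59a, stood at 11.2 against 14.8 FPKM. Cd46, a cofactor found mainly in testis in mice, was at 0.424 against 0.280 FPKM. The markers of sinusoidal endothelium, another cell type exposed to complement, lay below 0 in 6 of 6 under each scaling and summed to 34.3 against 79.4 FPKM, and their part was not tested.

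Receptors for the small fragments C3a and C5a, which draw in and activate myeloid cells, were low and higher in the SRSF2-KO-labelled library. C3ar1 stood at 2.13 against 0.596 FPKM, 3.58-fold with an interval of 2.58 to 4.95. C5ar1 was at 0.963 against 0.248 FPKM, 3.88-fold with an interval of 2.06 to 8.42 from about 55 and 11 reads. On the log2 scale with a pseudocount of 1 these differences shrink to 0.97 and 0.65, and with a pseudocount of 0.1 they are 1.68 and 1.61.

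Complement genes known from myeloid cells lay on both sides of 0. The C1q chains and both receptors were higher in the SRSF2-KO-labelled library, and Fcna and Cfp were lower. The ratio of Fcna to C1qb was 0.109 in the SRSF2-KO-labelled library and 0.387 in the WT-labelled library, a 3.56-fold difference with a Woolf interval of 2.93 to 4.33. Vsig4, the Kupffer cell receptor that captures C3b-coated particles, stood at 12.9 against 20.5 FPKM. Itgam and Itgax, whose products pair with that of Itgb2 to form the integrin complement receptors, were at 1.19 against 0.174 FPKM and at 1.72 against 0.146 FPKM. Their WT values were worth about 15 and 11 reads. Itgb2 itself stood at 3.70 against 2.76 FPKM, 1.34-fold with an interval of 1.09 to 1.66.

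Cell type markers were split in the same samples. Of the Kupffer cell markers 6 of 6 lay below 0, Vsig4 among them, with a sum of 53.9 against 114 FPKM, from -1.47 for Timd4 to -0.13 for Marco, which turned above 0 with equal sums and as TPM. Of the macrophage and monocyte markers 9 of 10 lay above 0, with a sum of 174 against 72.4 FPKM, from -0.16 for Csf1r, which also turned above 0 with equal sums and as TPM, to 2.36 for Cx3cr1. Ccr2, Trem2, Gpnmb and Cx3cr1 reached 1 FPKM only in the SRSF2-KO-labelled library, so as deposited they could only lie above 0. Timd4 reached it only in the WT-labelled library and could only lie below 0. Of the neutrophil markers, 3 of 7 were measured and all 3 lay above 0, while Ly6g was at 0 in both libraries. Csf3r, at 1.18 against 0.340 FPKM, reached 1 FPKM only in the SRSF2-KO-labelled library. The part of these cell types in the complement values was not tested.

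**Figure D4:**
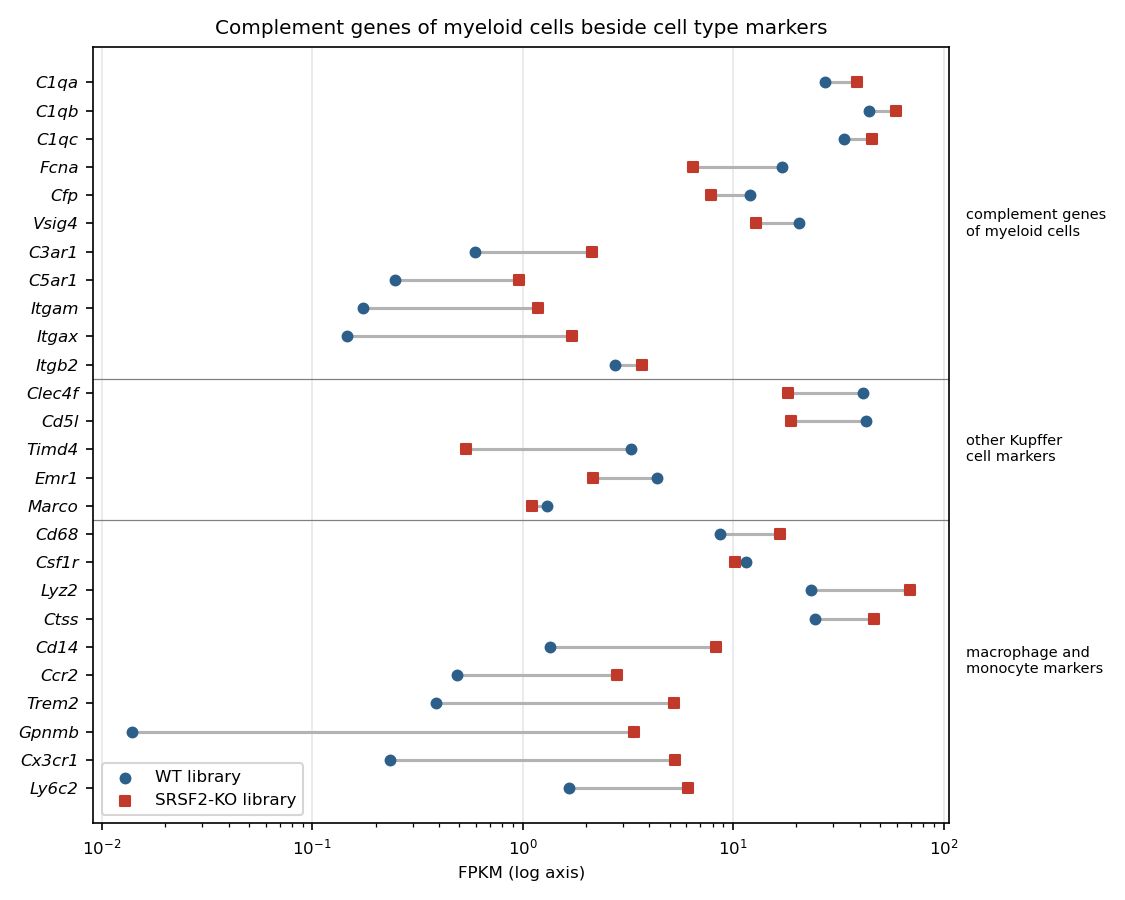
Levels in FPKM on a log axis of complement genes known from myeloid cells, of other Kupffer cell markers and of macrophage and monocyte markers, with WT as blue circles and SRSF2-KO as red squares. Of the complement genes, Fcna, Cfp and Vsig4 lie lower in the SRSF2-KO library. The C1q chains, C3ar1, C5ar1, Itgam, Itgax and, by 1.34-fold, Itgb2 lie higher. The 5 other Kupffer cell markers lie lower (Marco only as deposited and with the median-ratio scaling), and 9 of 10 macrophage and monocyte markers lie higher. Vsig4 is itself on the Kupffer cell list, and the part of these cell types was not tested. Of the genes shown, C3ar1, Itgam, Itgax, Ccr2, Trem2, Gpnmb and Cx3cr1 reach 1 FPKM only in the SRSF2-KO library, and Timd4 only in the WT library.

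Of 25 further complement genes, 20 were in the table under the symbols searched and 15 were measured. Among these 5 lay above 0 and 10 below 0, with a median log2 ratio of -0.24 that turned to 0.10 as TPM, where 10 lay above 0. Itgax was at least 2-fold higher, 1 of 15 beside 5.49% of all measured rows. Colec10 and Susd4 were at least 2-fold lower, 2 of 15 beside 3.22%. Cd93, Itgam and Itgax reached 1 FPKM only in the SRSF2-KO-labelled library, and Colec10 only in the WT-labelled library. Susd4, described in human as a membrane complement inhibitor, stood at 1.50 against 13.8 FPKM, 9.23-fold lower with an interval of 7.48 to 11.4. Serping1, the C1 inhibitor that shuts off the proteases of the classical and lectin pathways, was the most abundant of them at 542 against 650.3 FPKM, and its log2 ratio of -0.26 turned to 0.09 as TPM.

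Cr1l, the rodent regulator Crry that protects cells from C3 deposition, was at 22.7 against 20.4 FPKM. Cpn1 and Cpn2, subunits of the carboxypeptidase that inactivates C3a and C5a, were at 149 against 160.3 FPKM and at 68.1 against 80.2 FPKM, with log2 ratios of -0.11 and -0.23 that turned to 0.24 and 0.11 as TPM.

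**Figure D5:**
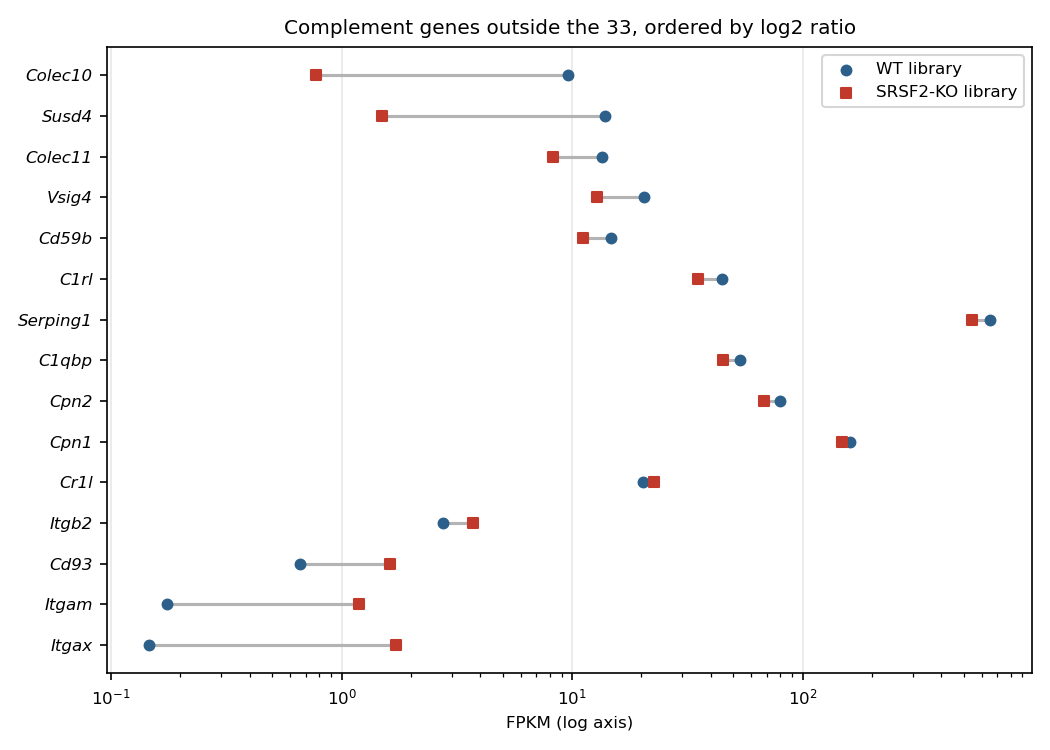
Levels in FPKM on a log axis of the 15 measured complement genes outside the 33, ordered from the lowest to the highest log2 ratio, with WT as blue circles and SRSF2-KO as red squares. Colec10 and Susd4 lie furthest to the lower side and Itgax and Itgam furthest to the higher side, all 4 at low FPKM in the lower library.

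Plasma proteins outside complement are set beside the complement members, which were not limited here to those made by hepatocytes. Of 27 listed, 24 were measured, with 5 above 0, 19 below 0 and a median log2 ratio of -0.34, beside -0.20 for the complement members, and as TPM the medians were 0.01 and 0.15. Their summed FPKM was 37536 in the SRSF2-KO-labelled library and 48045 in the WT-labelled library, a ratio of 0.781, whereas the ratio for the complement members was 1.03. The 2 sums are led by a few abundant genes each, C3, Clu and Vtn in complement and Apoa1 and Ttr among the others. Ttr had the lowest log2 ratio of its list, -1.07, at 2938 against 6190 FPKM. Clu stood at 1676 against 1051 FPKM, so single genes weigh heavily on both ratios of sums.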

How the data were processed

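Mouse liver RNA was sequenced as 2 libraries, 1 per label. The authors deposited 1 table of FPKM, and per the submitters' processing notes Bowtie 0.12.2 and the build mm9 were used. The sources used here do not name the program that estimated FPKM, the annotation, the strandedness or any filters. Columns were assigned by name. The complement members and all gene lists were chosen with earlier results of these data known. Every complement member is named, along with Srsf2 and the measured further complement genes a result turns on, and markers by the highest and lowest ratio. Some further complement genes are not reported here.

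Rows reaching 1 FPKM in either library were called measured. With a pseudocount of 1, a log2 ratio from 1 upward or from -1 downward was called 2-fold. Low values stepped in whole reads. For genes with 1 GENCODE M21 transcript, depths and a length offset of 180 bases shared by both libraries put 71.6% (469 values) and 74.9% (435 values) of values worth 1 to 3 reads within 0.1 of a whole read. Reads per gene used the longest protein-coding transcript of that annotation (GRCm38, lengths only). Intervals at 95% cover counting error only and depend on those lengths. Scripts (Python 3.11.15, pandas 2.3.3, scipy 1.17.1) were tested on simulated data. Promoters are RefSeq sequences. Alternatives were 2 pseudocounts, 3 filters and 3 rescalings.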

Additional observations from a re-analysis of the deposited data

How the results depend on the processing

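The count of members at least 2-fold higher was 1 as deposited, 2 with a pseudocount of 0.1, 2 when sums were equalised outside the 50 most abundant rows, 2 with the median-ratio scaling and 3 as TPM. C6 was counted each time, joined by C3ar1 and, as TPM, by Clu. The share of all measured rows moved as well, from 5.49% as deposited to 9.27%, 8.34%, 6.81% and 10.7% in that order. The count of members at least 2-fold lower was 3 as deposited, 4 with a pseudocount of 0.1, where Cfd joined at -1.25, 2 with the median-ratio scaling, and 1, Fcna, both with equal sums and as TPM. The shares of all rows were 3.22%, 4.82%, 2.44%, 1.98% and 1.99%. The median log2 ratio of the members was -0.20 as deposited, -0.12 without a filter on low values, -0.046 with the median-ratio scaling, 0.087 with equal sums and 0.15 as TPM. It was -0.11 without the 6 members that have a near-identical or related copy, an alternative chosen after seeing the data. The rescalings raise the SRSF2-KO values against the WT values by construction, and the cause of the unequal totals was not tested. No member past 2-fold changed sign under the 3 rescalings, which could have turned only the lower ones, Fcna, C8g and Mbl2. A change of pseudocount or filter cannot turn a sign, so those settings do not bear on it. No paired analysis was possible because there is 1 library per label. Depth limits the values of C7, C5ar1 and Cfd, and of Itgam and Itgax outside the 33, which rest on few reads in 1 or both libraries. No value has a replicate.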

Other observations

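Acute phase genes that share inducers with complement were split as well. Saa1 and Saa2, genes of serum amyloid A, stood at 207 against 73.9 FPKM and at 138 against 29.8 FPKM in the libraries labelled SRSF2-KO and WT. Crp, a pentraxin that can bind C1q, stood at 116 against 243 FPKM. Smaller differences were seen for the acute phase genes Hp and Orm1, with log2 ratios of 0.23 and -0.24. That of Orm1 turned to 0.11 as TPM. Among 11 genes of acute phase signalling 3 lay above 0 and 8 below 0, with a median log2 ratio of -0.33, or 5 above and 6 below with a median of -0.015 as TPM. Il6ra, the interleukin-6 receptor chain, was lowest at 6.45 against 19.0 FPKM. Next came the C/EBP genes Cebpb, at 43.8 against 118 FPKM, and Cebpd, at 5.27 against 13.0 FPKM. As deposited these 3 of 11 were at least 2-fold lower, beside 3.22% of all measured rows, and 0 were at least 2-fold higher. Socs3, a feedback inhibitor of the signalling of the interleukin-6 receptor, was highest at 4.99 against 2.05 FPKM. As TPM, Il6ra and Cebpb stayed past 2-fold at -1.145 and -1.069, Cebpd did not, and Socs3 rose to 1.37. C3 and Cfb, both known acute phase genes, had log2 ratios of 0.17 and -0.15.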
